A study of Mus musculus with 26 samples.

Results

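The genes of cholesterol supply were examined as a module of 30 genes, defined by gene name, out of 52962 genes in the count table. The module holds 20 enzymes of cholesterol synthesis, taken in pathway order, 5 genes of the sterol-sensing control by SREBP transcription factors, and 5 genes of cholesterol uptake, movement, and export. All 30 passed the filter on low counts, which kept 15402 genes and asked for more than 0.5 CPM in 4 libraries. *Abca1* and *Abcg1* passed it only through DKO and JMO libraries. Cells build cholesterol from acetyl-CoA, first through mevalonate to farnesyl diphosphate and then through squalene and a series of sterols. SREBP factors switch these genes on when the endoplasmic reticulum membrane is short of sterol. SCAP carries SREBP to the Golgi for cleavage, INSIG proteins hold SCAP back when sterol is plentiful, and LXR receptors, which sense oxidised sterols, switch on export genes. In brown fat precursors cholesterol serves mainly the membranes of dividing cells, and insulin is known to raise SREBP activity in several tissues.

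The study asked which signals of the insulin receptor (IR) need neither insulin nor kinase activity. Brown preadipocytes from newborn mice were immortalised with SV40 T-antigen, and IR and IGF1R were deleted with adenoviral GFP-tagged Cre to give double knockout (DKO) cells. DKO cells were then given, by retrovirus and hygromycin selection, human IR of the B isoform, its kinase-dead K1030R form, a form lacking the C-terminal tail (∆CT), or a form that keeps only the juxtamembrane stretch inside the cell (JMO). IR, K1030R, and ∆CT thus have most of the intracellular domain, whereas JMO lacks it. All cells, DKO included, went without serum for 6 h, and the receptor lines were left in this basal state or given 100 nM insulin for 15 min, while DKO cells were measured in the basal state alone. Each group had 3 dishes, except ∆CT with insulin with 2. Every receptor was studied in 1 transduced line, so the dishes measure repeat cultures of a line and the receptor cannot be told apart from other properties of its line. The methods list an empty vector among the constructs, and the labels do not say whether the DKO cells carried it.

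The 26 libraries held between 17228982 and 24694828 counts, and dishes of a group had a biological coefficient of variation of 4.44%. Values are CPM, which are counts divided by TMM-scaled library size, and are compared between groups for the same gene only, since no transcript lengths were used. *Insr* had between 22.3 and 24.8 CPM in DKO and between 65.5 and 99.7 CPM in receptor libraries, although the receptors are human and the counts are on mouse sequence. *Igf1r*, the other deleted gene, had between 24.7 and 28.6 CPM in DKO and between 29.7 and 35.7 CPM in receptor libraries. The paper reports no IR or IGF1R in DKO cells, either as mRNA by qPCR or as protein. The counts used here are totals per gene and do not tell which exons were read, so they cannot show whether the deletion was complete. Of 10 preadipocyte markers 8 exceeded 1 CPM on average in every group, among them *Pdgfra* and *Pdgfrb*, while the brown precursor markers *Dlk1* and *Ebf2* were near 0. The lines were not alike in these markers. *Ly6a* had between 42.6 and 49.2 CPM in DKO, 2.28 and 5.81 in basal IR, K1030R, and ∆CT, and 9.80 and 11.3 in basal JMO libraries, and *Thy1* had between 5.87 and 7.56 CPM in DKO and 21.0 and 29.7 in the other basal libraries. *Cd34* had between 2.92 and 4.01 CPM in DKO, 4.67 and 5.19 in basal JMO, and 9.68 and 14.9 in the other basal libraries. The part of these differences in the values of the members was not tested. Of 4 markers of other cell types *Pecam1*, of endothelium, was the one above 1 CPM, with list sums between 7.02 and 17.5 CPM, and *Myod1* was at 0 in every group.

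Promoter sequences are shown for 4 members: the enzyme genes *Hmgcs1* and *Mvk*, the sterol sensor partner *Insig1*, and the export gene *Abca1*. Basal group means of *Hmgcs1*, *Mvk*, and *Insig1* ran in the order JMO, DKO, IR, and then both K1030R and ∆CT. Those of *Abca1* did not. The sequences were taken from RefSeq on GRCm38.p6, on the coding strand, and run up to the earliest annotated start of the gene. Capitals mark matches, on either strand, to the core of a sterol regulatory element (TCACNCCAC, where N is any base), the NF-Y box CCAAT, the Sp1 box GGGCGG, and the E-box CACGTG. The positions were chr13:119690101-119690350 on the plus strand for *Hmgcs1*, chr5:114444019-114444268 plus for *Mvk*, chr5:28071162-28071362 plus for *Insig1*, and chr4:53159896-53160145 minus for *Abca1*.
Hmgcs1: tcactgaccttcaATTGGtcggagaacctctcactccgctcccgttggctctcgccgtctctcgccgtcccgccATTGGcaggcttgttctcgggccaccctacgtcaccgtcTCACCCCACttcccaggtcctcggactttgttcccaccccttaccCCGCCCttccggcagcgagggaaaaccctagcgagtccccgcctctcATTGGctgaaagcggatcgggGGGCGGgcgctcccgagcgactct
Mvk: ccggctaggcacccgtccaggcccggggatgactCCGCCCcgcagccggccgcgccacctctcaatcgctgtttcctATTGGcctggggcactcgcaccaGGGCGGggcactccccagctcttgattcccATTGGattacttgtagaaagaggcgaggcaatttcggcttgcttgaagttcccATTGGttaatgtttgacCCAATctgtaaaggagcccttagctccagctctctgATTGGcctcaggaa
Insig1: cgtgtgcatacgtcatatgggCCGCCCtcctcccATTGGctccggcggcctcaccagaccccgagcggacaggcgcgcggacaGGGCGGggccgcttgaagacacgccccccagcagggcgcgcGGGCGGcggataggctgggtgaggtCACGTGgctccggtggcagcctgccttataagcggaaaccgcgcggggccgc
Abca1: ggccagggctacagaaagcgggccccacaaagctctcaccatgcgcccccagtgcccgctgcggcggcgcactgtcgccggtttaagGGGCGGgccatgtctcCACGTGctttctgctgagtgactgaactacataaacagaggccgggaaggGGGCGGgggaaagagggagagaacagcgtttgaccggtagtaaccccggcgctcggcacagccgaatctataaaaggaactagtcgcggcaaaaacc

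SREBP binds its element beside NF-Y and Sp1, which is why these boxes were counted. RefSeq gave the 250 bases before a start for 24 members, 17 of them synthesis enzymes. *Dhcr7*, *Insig2*, *Pmvk*, *Scap*, and *Srebf1* had several starts, each with its own window. A gene was counted where any of its windows held the motif, also among all genes. The windows of *Fdps*, *Fdft1*, *Sqle*, *Stard4*, *Npc1*, and *Abcg1* were not used here. A CCAAT box was found in 21 of the 24 and in 16 of the 17 enzymes, against 37.495% of 27025 genes. An Sp1 box was found in 22 of the 24, against 35.356% of genes, and an E-box in 6, against 6.86%. The Sp1 matches of *Insig2*, *Scap*, and *Srebf1* and the E-box matches of *Dhcr7* and *Scap* lay only in windows of later starts. The sterol element core was found in *Hmgcs1* alone, 137 bases before the start, against 1.225% of genes. *Mvk* held 5 CCAAT boxes and *Abca1* none. The matches were counted without regard to overlap between motifs and describe letters only, not binding. The shares are over all 27025 genes with a window, whether or not they passed the filter, as all members did. Shares over the genes tested were not computed.

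In the basal state the enzymes of cholesterol synthesis were lowest in JMO cells, higher in DKO and then IR cells, and highest in K1030R and ∆CT cells. The steps between the lines were small for single genes, mostly under 1.5-fold, but most of the enzymes took them together. Group means ran in the order JMO, DKO, IR, and then both K1030R and ∆CT for 13 of the 20 enzymes (65%), an order that 3.23% of all genes tested had. JMO was the lowest of the 5 lines for 19 of the 20, against 19.6% of all genes, the exception being *Ggps1*. K1030R was the highest for 17, against 13.8% of all genes. The order of lines was not among the results planned beforehand, and the genes were chosen with earlier results of these data known. These shares therefore describe the listed genes and are not a test. Averaged over the 20 enzymes on the log2 scale and relative to the DKO mean, basal dishes lay at -0.21, -0.21, and -0.36 in JMO, 0.14, 0.15, and 0.16 in IR, 0.42, 0.45, and 0.49 in K1030R, and 0.41, 0.41, and 0.35 in ∆CT. The third JMO dish was the lowest of all 26 libraries, and several values are given without it further on. The counts of 19 and 13 enzymes above include *Mvd*. Without this dish *Mvd* was higher in JMO than in DKO cells by a log2 difference of 0.02. The median over all 15402 genes lay within 0.02 of the DKO mean in every library.

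**Figure D1:**
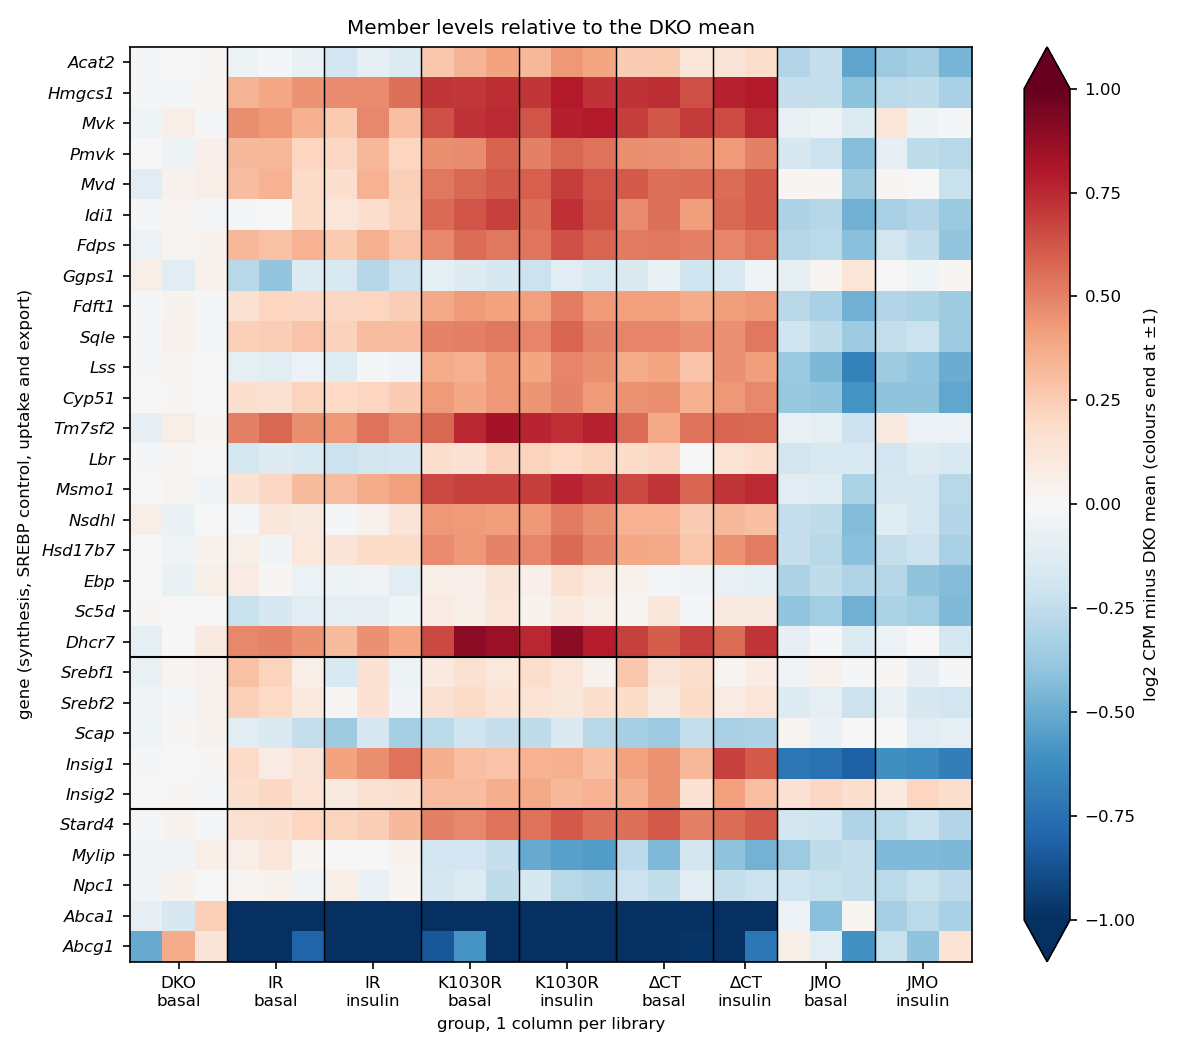
Log2 CPM of the 30 members minus their DKO mean, with 1 row per gene in pathway order and 1 column per library; black lines divide the groups and the subgroups of 20, 5, and 5 genes. Most enzyme rows are red in K1030R and ∆CT and blue in JMO, whereas *Abca1* and *Abcg1* are dark blue in the IR, K1030R, and ∆CT libraries, where the colours end at -1.

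Each receptor line was first compared with DKO cells in the basal state, without insulin. In K1030R cells 21 of the 30 members were higher and 4 lower at 0.05 in the quasi-likelihood test of edgeR, Benjamini-Hochberg adjusted, where 21.2% of all genes were higher and 20.4% lower. In ∆CT cells 22 members were higher (23.4% of all genes) and 6 lower (22.9%). In IR cells 16 were higher (25.6%) and 6 lower (24.1%). In JMO cells the direction was the other way, with 1 member higher, *Insig2* (16.8%), and 20 lower (17.4%). Without the third JMO dish 19 members were lower. The lower members include *Abca1* in K1030R, and *Abca1* and *Abcg1* in IR and ∆CT cells, which the filter could keep only where DKO and JMO levels were high, so these counts do not support a direction for them.

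Among the 20 synthesis enzymes 11 were higher in IR cells than in DKO cells, 17 each in K1030R and ∆CT cells, and 0 in JMO cells, and 3, 0, 1, and 15 were lower. Of all genes 25.6%, 21.2%, 23.4%, and 16.8% were higher in these lines, and 24.1%, 20.4%, 22.9%, and 17.4% lower. Their median log2 difference from DKO was 0.19 for IR, 0.49 for K1030R, 0.44 for ∆CT, and -0.29 for JMO cells, beside a median of about 0.01 over all genes in each comparison. Without the third JMO dish the JMO median was -0.24. Of the 8 enzymes from *Acat2* to *Ggps1* 7 were higher in K1030R cells, with a median of 0.54, and of the 12 from *Fdft1* to *Dhcr7* 10 were higher, with a median of 0.42.

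**Figure D2:**
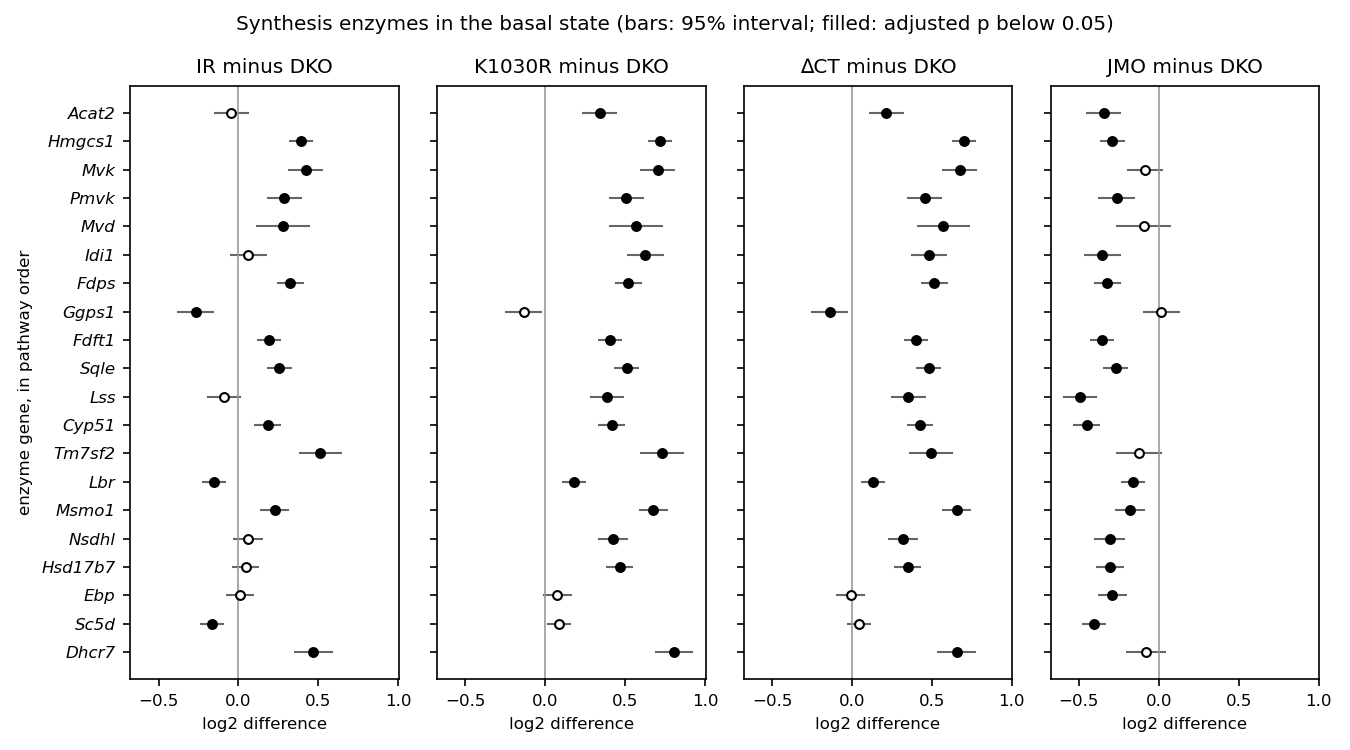
Log2 difference from DKO of the 20 synthesis enzymes in basal IR, K1030R, ∆CT, and JMO cells, with 95% intervals and filled points at an adjusted p below 0.05. The points lie mostly right of 0 in K1030R and ∆CT cells, nearer to 0 in IR cells, and left of 0 in JMO cells.

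The mevalonate enzymes stand at the start of the pathway. *Hmgcs1* (HMG-CoA synthase, which makes the precursor of mevalonate, chromosome 13:119690379-119708260, GRCm38) had a CPM of 661, 663, and 678 in DKO, 846, 871, and 911 in IR, 1095, 1087, and 1113 in K1030R, 1099, 1116, and 1042 in ∆CT, and 570.3, 565, and 501 in JMO dishes. The JMO, DKO, and IR dishes formed separate steps without overlap, and K1030R and ∆CT dishes overlapped above them. Its log2 difference from DKO was 0.39 for IR, 0.72 for K1030R, 0.70 for ∆CT, and -0.29 for JMO cells, with standard errors of 0.04 and adjusted p of 1.71e-07 or smaller. *Hmgcs1* passed the minimum-fold test of edgeR (glmTreat) at 1.5-fold against DKO in K1030R (adjusted p = 0.00258) and in ∆CT cells (0.00733).

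*Mvk*, mevalonate kinase, had a CPM of 57.1, 61.5, and 58.2 in DKO, 81.3, 79.6, and 75.5 in IR, 91.9, 97.2, and 98.8 in K1030R, 95.2, 90.8, and 96.0 in ∆CT, and 56.0, 57.0, and 53.6 in JMO dishes. Its JMO dishes reached to just under its DKO dishes, while every dish of the other lines was higher. *Pmvk*, the next kinase, had a CPM of 57.1, 55.4, and 59.2 in DKO, 71.5, 71.9, and 66.4 in IR, 79.0, 79.4, and 86.1 in K1030R, 79.1, 78.8, and 77.6 in ∆CT, and 51.1, 49.2, and 42.5 in JMO dishes. Here all JMO dishes lay below all DKO dishes, and K1030R and ∆CT overlapped. The log2 difference from DKO in K1030R cells was 0.71 for *Mvk*, 0.51 for *Pmvk*, and 0.57 for *Mvd*, the mevalonate diphosphate decarboxylase, all called. *Mvd* was also higher in IR (0.28) and ∆CT cells (0.57) and was not called in JMO cells (-0.09).

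*Idi1*, the isomerase of isopentenyl diphosphate, had a CPM of 505, 519.7, and 505 in DKO, 504, 511, and 579.9 in IR, 756, 788, and 817 in K1030R, 706, 748, and 682 in ∆CT, and 412, 418, and 366 in JMO dishes. IR dishes overlapped DKO dishes, and K1030R and ∆CT dishes were above both. *Fdps*, which makes farnesyl diphosphate, had a CPM of 330.0, 351, and 352 in DKO, 433, 422, and 439 in IR, 480.1, 506, and 496 in K1030R, 493, 496, and 488 in ∆CT, and 283, 286, and 258 in JMO dishes. Its JMO, DKO, and IR dishes did not overlap, and K1030R and ∆CT dishes overlapped above them. The log2 differences from DKO were 0.06 for IR, 0.63 for K1030R, 0.48 for ∆CT, and -0.35 for JMO cells for *Idi1*, the IR value not being called, and 0.32 for IR, 0.52 for K1030R, 0.51 for ∆CT, and -0.32 for JMO cells for *Fdps*, all called. *Fdps* shares 1124 exon bases with a predicted gene on the same strand, *Gm43738*, so reads of the pair may be split between them. *Acat2*, the cytosolic thiolase that condenses acetyl-CoA, was higher in K1030R (0.34) and ∆CT cells (0.22), lower in JMO (-0.35), and not called in IR cells (-0.04).

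*Ggps1* leads away from cholesterol, making the geranylgeranyl diphosphate used to prenylate proteins, and it did not follow the others. Its log2 difference from DKO was -0.27 for IR, -0.13 for K1030R, -0.14 for ∆CT, and 0.02 for JMO cells. The IR value (adjusted p = 0.000182) and the ∆CT value (0.0428) were called in the quasi-likelihood test of edgeR, Benjamini-Hochberg adjusted, the latter lost in 7 of 34 alternatives (adjusted p from 0.0115 to 0.167). It was the single synthesis enzyme called lower in IR, K1030R, and ∆CT cells than in JMO cells, and the K1030R and ∆CT calls were lost in 7 and 6 of 34 alternatives (adjusted p up to 0.220 and 0.182, from 0.00830 and 0.00598).

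From squalene on, *Fdft1*, squalene synthase, had a CPM of 234, 244, and 236 in DKO, 264, 276, and 275 in IR, 309.7, 320.2, and 314 in K1030R, 316, 316, and 308 in ∆CT, and 196, 190.2, and 171 in JMO dishes. *Sqle*, squalene epoxidase and a rate-limiting enzyme, had a CPM of 314, 327, and 313 in DKO, 374, 377, and 388 in IR, 449, 451, and 457 in K1030R, 446, 447, and 437 in ∆CT, and 276, 267, and 247 in JMO dishes. *Cyp51*, which takes a methyl group off lanosterol, had a CPM of 538, 542, and 536 in DKO, 605, 600.3, and 628 in IR, 725, 703, and 729 in K1030R, 736, 744, and 689 in ∆CT, and 415, 409.7, and 357 in JMO dishes. In all 3 genes the JMO, DKO, and IR dishes stood apart in that order, with K1030R and ∆CT dishes above them. In K1030R cells the log2 difference from DKO was 0.40, 0.51, and 0.42 for these genes, and in JMO cells it was -0.36, -0.27, and -0.45. *Fdft1* overlaps *Ctsb* on the opposite strand by 774 exon bases.

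*Lss*, lanosterol synthase, had a CPM of 431, 445, and 439 in DKO, 408, 406, and 422 in IR, 565, 561, and 591 in K1030R, 568, 576, and 535 in ∆CT, and 339, 321, and 274 in JMO dishes. Its IR dishes lay below its DKO dishes, although the difference of -0.09 was not called (adjusted p = 0.167, the quasi-likelihood test of edgeR, Benjamini-Hochberg adjusted), and its JMO value was the lowest of the enzymes relative to DKO (-0.49, adjusted p = 6.06e-08). *Msmo1*, a methylsterol oxidase, had a CPM of 331, 337, and 326 in DKO, 367, 384, and 413 in IR, 524, 533, and 532 in K1030R, 524, 544, and 497 in ∆CT, and 307, 304, and 267 in JMO dishes. JMO, DKO, and IR dishes again formed separate steps below the overlapping K1030R and ∆CT dishes. Relative to DKO the log2 difference was 0.23 for IR, 0.68 for K1030R, 0.65 for ∆CT, and -0.18 for JMO cells, all called, the JMO value being -0.12 without the third JMO dish.

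*Tm7sf2* and *Lbr* encode sterol reductases for the same step, *Lbr* being also a lamin-binding protein of the inner nuclear membrane. *Tm7sf2* had a CPM of 15.5, 17.0, and 16.6 in DKO, 23.2, 24.3, and 22.5 in IR, 24.4, 27.6, and 29.2 in K1030R, 24.1, 21.2, and 23.8 in ∆CT, and 15.5, 15.4, and 14.1 in JMO dishes. Its IR, K1030R, and ∆CT dishes were all above its DKO and JMO dishes. *Lbr* had between 127 and 131 CPM in IR and between 142 and 145 CPM in DKO dishes. Against DKO the log2 differences were 0.51 for IR, 0.73 for K1030R, 0.50 for ∆CT, and -0.12 for JMO cells for *Tm7sf2* and -0.15 for IR, 0.18 for K1030R, 0.13 for ∆CT, and -0.16 for JMO cells for *Lbr*, so that in IR cells the first was higher and the second lower, both called. *Tm7sf2* shares 532 exon bases with *Vps51* on the same strand.

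*Nsdhl* and *Hsd17b7* act together with *Msmo1* in removing methyl groups. *Nsdhl* had a CPM of 108, 99.7, and 104 in DKO, 103, 112, and 111 in IR, 141, 139.6, and 139 in K1030R, 133, 132, and 125 in ∆CT, and 88.2, 87.3, and 76.9 in JMO dishes. *Hsd17b7* had a CPM of 115, 113, and 118 in DKO, 119.8, 113, and 124 in IR, 160.2, 155, and 162 in K1030R, 151, 149.9, and 139 in ∆CT, and 98.0, 95.3, and 86.3 in JMO dishes. For both, IR dishes overlapped DKO dishes, K1030R and ∆CT dishes were higher, and JMO dishes lower. The called log2 differences were 0.42 and 0.47 in K1030R, 0.32 and 0.35 in ∆CT, and -0.31 and -0.31 in JMO cells.

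*Dhcr7*, a reductase that makes cholesterol from its immediate precursor, had a CPM of 47.6, 51.1, and 54.4 in DKO, 71.1, 71.7, and 69.6 in IR, 80.5, 94.8, and 92.9 in K1030R, 82.0, 77.8, and 81.7 in ∆CT, and 48.1, 50.4, and 46.4 in JMO dishes. The K1030R dishes were the highest, apart from 1 that fell within the ∆CT range, and JMO dishes overlapped DKO dishes. Relative to DKO the log2 difference was 0.47 for IR, 0.81 for K1030R, 0.65 for ∆CT, and -0.08 for JMO cells, and in K1030R cells it passed 1.5-fold (adjusted p = 0.00161, glmTreat). The isomerase *Ebp* and the desaturase *Sc5d*, which act shortly before *Dhcr7*, were not called higher than DKO in any line. In K1030R cells *Sc5d* differed by 0.09 (adjusted p = 0.0530, the quasi-likelihood test of edgeR, Benjamini-Hochberg adjusted, and from 0.0264 to 0.189 over alternatives). *Ebp* was lower in JMO cells (-0.29), and *Sc5d* was lower in JMO (-0.41) and IR cells (-0.17).

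With the minimum fold of 1.5 against DKO, 2 members were higher in K1030R cells, *Hmgcs1* and *Dhcr7* (2.04% of all genes), and 1 was higher in ∆CT cells, *Hmgcs1* (2.38%). In JMO cells 1 was lower, *Insig1* (0.734%). *Abca1* was the single member lower by this test in IR (3.29%), K1030R (3.25%), and ∆CT cells (3.92%). The filter kept it only through DKO and JMO libraries, so these calls do not support a direction.

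The 3 lines with most of the intracellular domain were next compared with the JMO line, which lacks it. Every receptor was in 1 line, so the domain cannot be told apart from other properties of its line. In IR cells 24 members were higher than in JMO cells (21.8% of all genes) and 4 lower (20.7%). In K1030R cells 23 were higher (18%) and 3 lower (17.4%), and in ∆CT cells 24 were higher (19.3%) and 3 lower (19.5%). These comparisons share the JMO dishes. The lower members include *Abca1* in each line and *Abcg1* in IR cells, which the filter kept only through DKO and JMO libraries. These counts do not support a direction for them. Of the 20 enzymes 18, 19, and 19 were higher in IR, K1030R, and ∆CT cells, with median log2 differences of 0.41, 0.78, and 0.73, beside medians between -0.00344 and -0.00235 over all genes. Without the third JMO dish the medians were 0.35, 0.73, and 0.67.

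By the 1.5-fold test against JMO, 16 members were higher in K1030R cells, where 0.851% of all genes were, 12 in ∆CT cells (1.08%), and 2 in IR cells, *Hmgcs1* and *Insig1* (1.94%). In either direction 17, 13, and 3 members passed, and 15, 11, and 2 without the third JMO dish. The log2 difference from JMO was 0.68 for IR, 1.01 for K1030R, and 0.99 for ∆CT for *Hmgcs1*, 0.42 for IR, 0.98 for K1030R, and 0.84 for ∆CT for *Idi1*, and 0.63 for IR, 0.87 for K1030R, and 0.88 for ∆CT for *Cyp51*. For *Lbr* the IR value was 0.01 and was not called, and the other values were 0.34 and 0.29. By the same test *Abca1* was the member lower than in JMO in IR (2.65% of all genes), K1030R (2.79%), and ∆CT cells (3.43%). These calls carry the same limit from the filter.

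The insulin libraries give this comparison in dishes that the basal one does not use. With insulin 23 members were higher than in JMO cells in each of IR (20.3%), K1030R (19.3%), and ∆CT cells (15.8%). There 4 were lower for IR (19.9%), 4 for K1030R (19.1%), and 2 for ∆CT cells (17.3%). Where *Abca1* and *Abcg1* are among the lower members, the filter kept them only through DKO and JMO libraries. These counts do not support a direction for them. The median of the enzymes was 0.44, 0.77, and 0.70.

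K1030R and ∆CT were also compared with IR, since K1030R lacks kinase activity and ∆CT the C-terminal tail. In K1030R cells 21 members were higher than in IR cells (13.9% of all genes) and 2 lower, *Mylip* and *Npc1* (16.3%). In ∆CT cells 20 were higher (11.2%) and 3 lower, *Mylip*, *Npc1*, and *Scap* (14.8%), the *Scap* call being lost in 6 of 34 alternatives (adjusted p from 0.00542 to 0.113). Of the enzymes 18 were higher in K1030R and 17 in ∆CT cells, with median log2 differences of 0.29 and 0.25, and none passed 1.5-fold. Among the enzymes *Idi1* differed most in K1030R (0.57 ± 0.06, SE), and *Lss* in ∆CT cells (0.44 ± 0.05). Every K1030R dish exceeded every IR dish for 18 of the 20 enzymes, as it did for 18.5% of all genes. *Ggps1* and *Ebp* were the enzymes not called against IR in K1030R cells, and these and *Tm7sf2* in ∆CT cells.

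∆CT and K1030R cells differed in 1 member, while 3.43% of all genes differed. That member was *Tm7sf2*, lower in ∆CT cells by a log2 difference of -0.23 (95% interval -0.36 to -0.10), and it was lost in 6 of 34 alternatives. At an unadjusted p below 0.05 there were 7 of the 30 members and 2396 of all 15402 genes. The interval of the difference was -0.09 to 0.06 for *Hmgcs1*, -0.26 to -0.03 for *Idi1*, and -0.27 to -0.04 for *Dhcr7*, so differences within these bounds are not excluded.

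The 5 control genes regulate the supply of active SREBP. *Srebf2* encodes SREBP2, the main activator of cholesterol synthesis. Its CPM was 449, 457, and 475 in DKO, 543, 529, and 492 in IR, 511, 524, and 505 in K1030R, 522, 490.1, and 522 in ∆CT, and 418, 429.9, and 397 in JMO dishes. JMO dishes lay below DKO dishes, and the dishes of the other lines overlapped above them. From DKO it differed on the log2 scale by 0.18 for IR, 0.16 for K1030R, 0.15 for ∆CT, and -0.15 for JMO cells, all called, though the JMO call was lost without the third JMO dish (adjusted p from 0.000241 to 0.0514 over alternatives). *Srebf2* was not called between K1030R or ∆CT cells and IR cells, the intervals being -0.11 to 0.06 and -0.11 to 0.06.

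*Srebf1* encodes SREBP1, whose isoforms lean towards fatty acid genes and are not told apart in gene counts. Dishes had CPM values of 57.0, 61.2, and 61.6 in DKO, 73.2, 69.8, and 62.5 in IR, 64.2, 66.5, and 64.4 in K1030R, 72.0, 65.7, and 67.5 in ∆CT, and 58.5, 61.7, and 59.1 in JMO dishes. The IR range reached from close to the DKO dishes to the highest value, and JMO dishes overlapped DKO dishes. The log2 difference from DKO was 0.19 for IR, 0.12 for K1030R, 0.19 for ∆CT, and -0.01 for JMO cells, called in IR and ∆CT cells. Each of these calls was lost when the first dish of the receptor line was left out, with an adjusted p of 0.0650 for IR and 0.0566 for ∆CT, the largest values over the alternatives, whose smallest were 0.000142 and 0.000169.

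*Scap* encodes the escort of SREBP. The transcript stood at a CPM of 79.3, 82.4, and 84.0 in DKO, 75.9, 74.2, and 69.4 in IR, 67.8, 71.4, and 69.8 in K1030R, 65.1, 63.6, and 69.5 in ∆CT, and 83.7, 78.2, and 81.6 in JMO dishes. DKO and JMO dishes overlapped above the dishes of the other lines. It was lower than in DKO in IR (-0.16), K1030R (-0.23), and ∆CT cells (-0.31), with 1 of the ∆CT dishes within the IR and K1030R ranges, and not called in JMO cells (-0.01). *Scap* overlaps *5830462I19Rik* on the opposite strand by 985 exon bases.

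*Insig1* (chromosome 5:28071363-28078662, GRCm38) encodes a retainer of SCAP and is itself an SREBP target. Its CPM was 511, 515, and 521 in DKO, 587, 545, and 563 in IR, 663, 636, and 628 in K1030R, 679.9, 706, and 651 in ∆CT, and 312, 307, and 293 in JMO dishes. The JMO dishes lay far below all others, and K1030R and ∆CT dishes overlapped at the top. Its log2 difference from DKO was -0.76 ± 0.04 in JMO cells (adjusted p = 1.04e-17), the member most reduced there, and 0.13, 0.32, and 0.40 in IR, K1030R, and ∆CT cells. Against JMO it was 0.90 for IR, 1.08 for K1030R, and 1.16 for ∆CT, past 1.5-fold in each.

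*Insig2*, the second retainer, is not induced by SREBP in the way that *Insig1* is. Dishes had CPM values of 64.5, 65.0, and 64.1 in DKO, 72.3, 74.7, and 70.8 in IR, 79.8, 79.8, and 82.9 in K1030R, 82.9, 88.3, and 71.2 in ∆CT, and 71.3, 74.5, and 72.6 in JMO dishes. The IR, ∆CT, and JMO dishes overlapped, and no dish was as low as the DKO dishes. In contrast to *Insig1* it was lowest in DKO cells and higher in all 4 receptor lines, by 0.17 for IR, 0.33 for K1030R, 0.33 for ∆CT, and 0.17 for JMO cells, all called. Against JMO cells it was higher in K1030R (0.15) and ∆CT (0.15) and did not differ measurably in IR cells, where the interval was -0.10 to 0.10. These calls were lost in 3 and 5 of 34 alternatives, with an adjusted p up to 0.0671 and 0.194, and the ∆CT value was 0.08 without the second ∆CT dish.

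**Figure D3:**
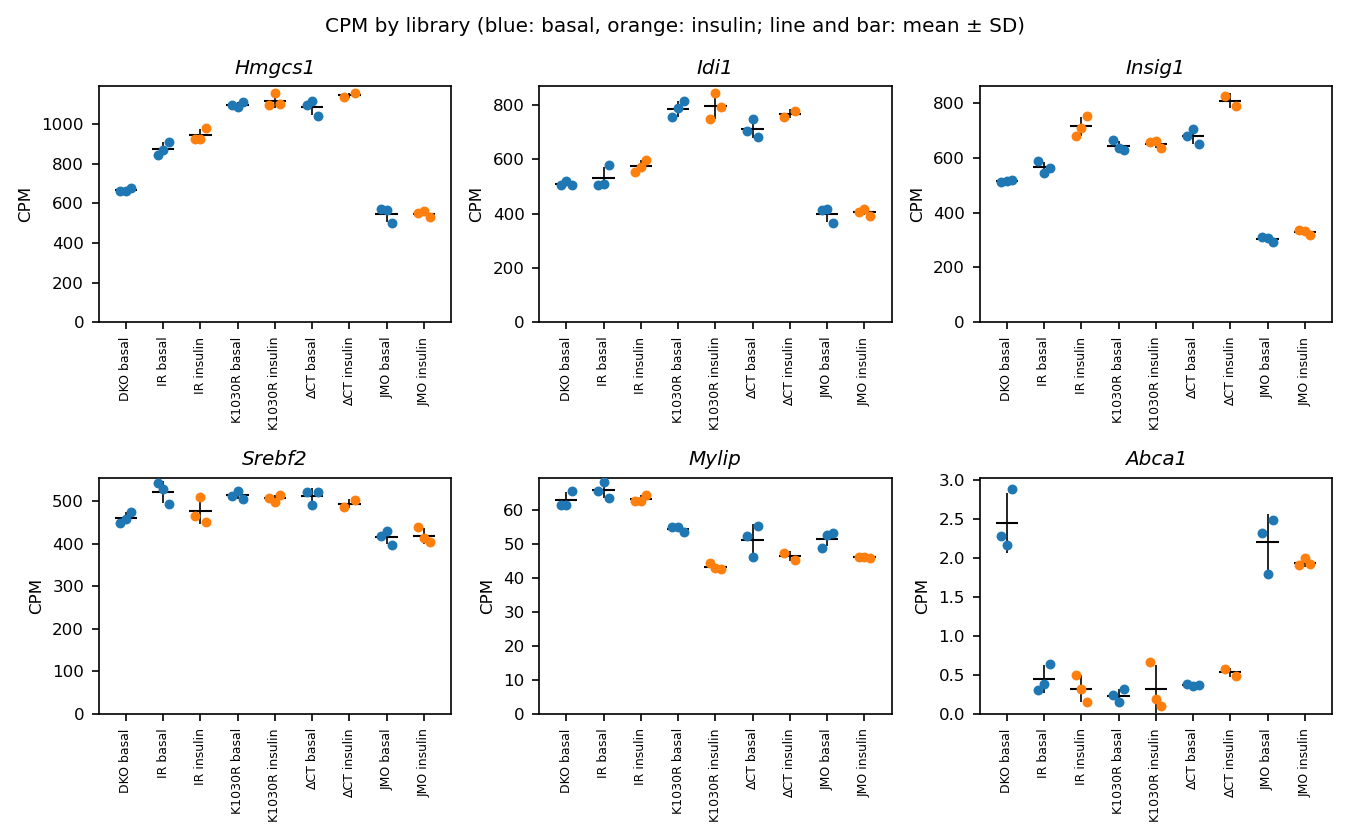
CPM of *Hmgcs1*, *Idi1*, *Insig1*, *Srebf2*, *Mylip*, and *Abca1* in all 26 libraries, with basal libraries in blue, insulin libraries in orange, and the mean ± SD of each group in black. *Insig1* is lowest in the JMO groups and higher with insulin than without in IR and ∆CT cells, and *Abca1* is near 2 CPM in DKO and JMO libraries and below 0.7 CPM in the others.

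Insulin for 15 min called few members. In IR cells 1 of 30 was called, *Insig1* (1.87% of all genes), in ∆CT cells 1, again *Insig1* (1.01%), in K1030R cells 1, *Mylip* (0.156%), and in JMO cells 0 (0.364%). For JMO cells 3 members had an unadjusted p below 0.05 (1080 of 15402 genes), and DESeq2 and limma voom also called 0. No synthesis enzyme was called in any line in the quasi-likelihood test of edgeR, Benjamini-Hochberg adjusted, with 4 at an unadjusted p below 0.05 for IR, 0 for K1030R, 1 for ∆CT, and 1 for JMO cells. Among all 15402 genes these numbers were 2259, 938, 1477, and 1080. In IR cells the enzymes lay between -0.10 and 0.14 on the log2 scale after insulin.

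*Insig1* rose with insulin from 587, 545, and 563 to 681, 710.4, and 752 CPM in IR dishes and from 679.9, 706, and 651 to 827 and 790.0 in ∆CT dishes. The basal and insulin dishes did not overlap in either line. In K1030R dishes it was 663, 636, and 628 without and 657, 659.9, and 634 with insulin, and in JMO dishes 312, 307, and 293 and 337, 332, and 319. The log2 change was 0.34 ± 0.04 in IR (adjusted p = 3.13e-08), 0.25 ± 0.04 in ∆CT (0.000112), 0.02 ± 0.04 in K1030R (0.991), and 0.12 ± 0.04 in JMO cells (0.284). The JMO dishes with insulin all exceeded those without.

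The difference of the insulin effect between lines was tested as a contrast of the same model. The effect on *Insig1* was smaller in K1030R than in IR cells, with a log2 difference of -0.32 (adjusted p = 0.000191, with 0.37% of all genes called), and larger in ∆CT than in K1030R cells by 0.23 (0.0337, 0.416%). Between JMO and IR cells the difference of -0.22 missed the threshold (0.0502, 0.279%) and passed it in 13 of 33 alternatives, whose adjusted p ran from 0.00225 to 0.255. No member was called between ∆CT and IR (0.00649%) or between ∆CT and JMO cells (0.26%), where 0 and 1 members had an unadjusted p below 0.05. Of all 15402 genes 566 and 702 did.

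Among the genes of uptake, movement, and export, *Stard4*, a cytosolic sterol carrier and SREBP target, followed the enzymes. The transcript stood at a CPM of 312, 324, and 314 in DKO, 352, 354, and 367 in IR, 449, 441, and 462 in K1030R, 463, 484, and 448 in ∆CT, and 279, 276, and 256 in JMO dishes. JMO, DKO, and IR dishes stood apart in that order, with K1030R and ∆CT above. Log2 differences from DKO were 0.18 for IR, 0.51 for K1030R, 0.56 for ∆CT, and -0.23 for JMO cells, all called, and against JMO it passed 1.5-fold in K1030R (0.74) and ∆CT cells (0.78).

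*Mylip*, also known as Idol, is a ubiquitin ligase that sends lipoprotein receptors to degradation and is an LXR target. Its CPM was 61.3, 61.4, and 65.5 in DKO, 65.4, 68.2, and 63.5 in IR, 54.8, 54.9, and 53.4 in K1030R, 52.2, 46.1, and 55.2 in ∆CT, and 48.8, 52.4, and 53.2 in JMO dishes. The IR and DKO dishes lay above those of all other lines. Against DKO it differed by 0.06 for IR, -0.21 for K1030R, -0.30 for ∆CT, and -0.29 for JMO cells, called in all but IR cells. With insulin it fell in K1030R dishes from 54.8, 54.9, and 53.4 to 44.2, 42.9, and 42.6 CPM (-0.33, adjusted p = 0.000329, the quasi-likelihood test of edgeR, Benjamini-Hochberg adjusted). The insulin dishes of ∆CT had 47.4 and 45.2 and those of JMO 46.1, 46.2, and 45.8 CPM, neither called (-0.14 and -0.16). The insulin effect in K1030R minus that in IR was -0.27 and was not called (adjusted p = 0.0743).

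*Npc1* carries cholesterol out of lysosomes. Dishes had CPM values of 108, 113, and 110.0 in DKO, 112, 113, and 108 in IR, 98.0, 100.2, and 92.9 in K1030R, 95.4, 93.3, and 103 in ∆CT, and 96.3, 94.7, and 93.8 in JMO dishes. IR and DKO dishes overlapped at the top and the other 3 lines overlapped below them, with 2 K1030R dishes and 1 ∆CT dish above the JMO range. The log2 difference from DKO was 0.01 for IR, -0.19 for K1030R, -0.19 for ∆CT, and -0.22 for JMO cells, called in all but IR cells. *Npc1* overlaps *Rmc1* on the opposite strand by 511 exon bases.

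*Abca1* (chromosome 4:53030787-53159895, GRCm38) exports cholesterol to apolipoproteins and is a main LXR target. It had a CPM of 2.28, 2.16, and 2.88 in DKO, 0.299, 0.380, and 0.642 in IR, 0.237, 0.151, and 0.310 in K1030R, 0.379, 0.350, and 0.362 in ∆CT, and 2.32, 1.79, and 2.48 in JMO dishes, which are 152 counts over the DKO group, 27 over IR, 13 over K1030R, 22 over ∆CT, and 142 over JMO. No dish of IR, K1030R, or ∆CT reached the lowest DKO or JMO dish. Over all 26 libraries it exceeded 0.5 CPM in 12, 9 of them DKO or JMO and 3 of the other lines, so it entered the test through the groups in which it was high. Its calls against basal DKO and JMO cells were also made without a filter on low counts. The log2 difference from DKO was -2.48 ± 0.33 for IR, -3.37 ± 0.38 for K1030R, and -2.74 ± 0.34 for ∆CT cells (adjusted p of 7.73e-08, 3.19e-09, and 2.49e-08), and -0.16 in JMO cells, not called. Against JMO it was -2.32 for IR, -3.21 for K1030R, and -2.57 for ∆CT, and in insulin libraries -2.57, -2.61, and -1.87. Since the filter kept *Abca1* through its high groups, these p-values are not support for a direction.

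*Abcg1*, an exporter to lipoproteins and likewise an LXR target, was barely detected. It had a CPM of 0.326, 0.671, and 0.561 in DKO, 0.132, 0.109, and 0.248 in IR, 0.237, 0.322, and 0.155 in K1030R, 0.190, 0.200, and 0.207 in ∆CT, and 0.518, 0.441, and 0.297 in JMO dishes, or 32, 10, 13, 12, and 27 counts per group. The K1030R and JMO ranges overlapped. It exceeded 0.5 CPM in 4 libraries, all DKO or JMO, so the filter kept it only through the groups in which it was high, and it was not tested under 5 of the 34 alternatives, which removed it. It was called lower than DKO in IR (-1.66) and ∆CT cells (-1.37), the latter with an adjusted p from 0.0105 to 0.0850 over the other 29 alternatives, and missed the threshold in K1030R cells (-1.16, adjusted p = 0.0508, the quasi-likelihood test of edgeR, Benjamini-Hochberg adjusted). The summed level of 4 markers of mature adipocytes was low. It lay between 2.5 and 2.6 CPM in DKO, 4.3 and 4.88 in JMO, and 0.558 and 1.97 in IR, K1030R, and ∆CT basal libraries. *Fabp4* gave most of that sum, and *Adipoq* and *Ucp1* were at 0 in all basal groups. *Plin1* did not fall in the same way, with between 0.0408 and 0.112 CPM in DKO and between 0 and 0.297 in IR basal dishes. The part of these markers in the values of the export genes was not tested.

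**Figure D4:**
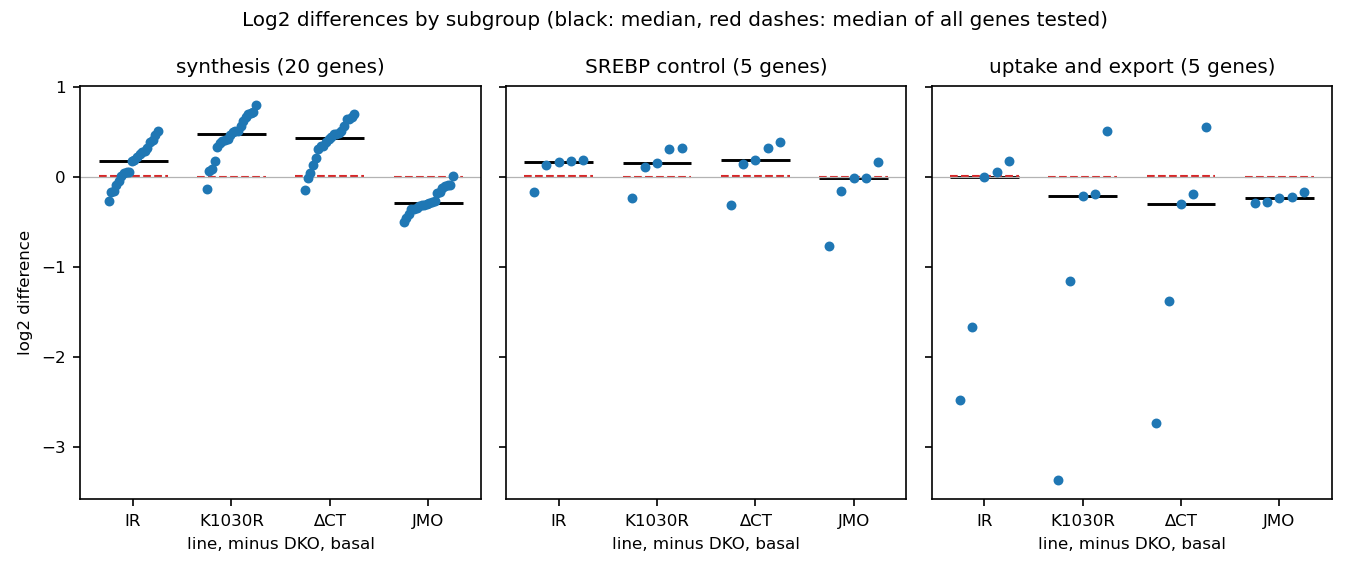
Log2 difference from DKO of each member in basal IR, K1030R, ∆CT, and JMO cells, by subgroup, with the subgroup median in black and the median of all genes tested in red. The enzyme median lies above 0 in IR, K1030R, and ∆CT cells and below 0 in JMO cells, and *Abca1* and *Abcg1* lie far below the other genes in IR, K1030R, and ∆CT cells.

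As subgroups the control genes had a median log2 difference from DKO of 0.17 for IR, 0.16 for K1030R, 0.19 for ∆CT, and -0.01 for JMO cells, and the genes of uptake and export 0.01, -0.21, -0.30, and -0.23. In K1030R cells 3 of the 5 control genes were higher and 1 lower, and 1 of the 5 uptake and export genes was higher and 3 lower, where 21.2% of all genes were higher and 20.4% lower. With 5 genes each these medians describe the listed genes and were not tested. The uptake and export values include *Abca1* and *Abcg1*, which the filter kept only through DKO and JMO libraries.

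Of 27 other genes of the pathway, covering SREBP cleavage, LXR, lysosomal release, esterification, sterol transfer, and prenyl branches, 25 passed the filter. Against DKO 9 were higher (25.6% of all genes) and 9 lower (24.1%) for IR, 8 (21.2%) and 8 (20.4%) for K1030R, 8 (23.4%) and 8 (22.9%) for ∆CT, and 5 (16.8%) and 5 (17.4%) for JMO cells, the last being near the share of all genes. The medians were -0.0028, 0.000626, -0.00255, and -0.000401. *Npc2*, the lysosomal partner of NPC1, was lower, with log2 differences from DKO of -0.83 for IR, -1.15 for K1030R, and -1.34 for ∆CT cells, and had 457, 462, and 487 CPM in DKO and 173, 176, and 206 in ∆CT dishes. *Nr1h3*, which encodes an LXR, had differences of -1.43, -0.96, and -1.20 in these lines, the IR and ∆CT values passing 1.5-fold. It had 1.96, 2.39, and 2.20 CPM in DKO, 0.726, 0.978, and 0.741 in IR, and 2.11, 2.40, and 2.08 in JMO dishes. In K1030R dishes it had 0.829, 1.76, and 0.724 CPM, and in ∆CT dishes 0.806, 0.899, and 1.14. These values rest on 14 to 55 counts per basal dish. *Ch25h*, which makes an oxysterol, was higher in JMO than in DKO cells by 1.09 (adjusted p = 0.000246 by glmTreat) and lower than in JMO cells, with log2 differences of -1.70 for IR, -1.69 for K1030R, and -1.69 for ∆CT cells.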

How the data were processed

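Poly(A) RNA of 26 libraries in 9 groups was analysed, with all libraries assigned from their labels. Per the methods, the authors trimmed reverse-stranded single-end reads with fastp, used kallisto to assign them to mouse transcripts of Ensembl, and obtained gene values with tximport. The values used are the authors' expected counts per gene, as deposited, neither filtered nor scaled, and 79.9% of them were exactly whole. Whether kallisto was run with its strand setting is not given in the sources used here, so genes that overlap on opposite strands may share reads.

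After rounding, the 15402 genes that exceeded 0.5 CPM in 4 or more libraries were tested. TMM scaling and a quasi-likelihood model with 1 mean per group over all 26 libraries were applied in edgeR 4.0.16 under R 4.3.3. Genes were called at a Benjamini-Hochberg adjusted p below 0.05 over all genes tested, without a minimum fold or, where said, with glmTreat at 1.5-fold. Log2 CPM used a prior count of 2, and 95% intervals come from the model's standard errors. Symbols were matched for 51916 of 52962 genes, and all 30 members matched. Coordinates are those of GENCODE on GRCm38, and promoter sequences those of RefSeq on GRCm38.p6.

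The members, subgroups, and the lists of other pathway genes and markers were chosen with earlier results of these data known. A member is described in every basal dish where it passed 1.5-fold in at least 1 of the basal comparisons against DKO or JMO, control, uptake, and export genes are always described, and genes of the other list are named where they passed 1.5-fold.

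Pairs of dishes within groups differed beyond counting noise (chi-square divided by its degrees of freedom between 2.83 and 22.5, 25 pairs), so none was counted as a repeat of another, and 0 members had counts identical to another gene's. The p-values measure the spread between dishes of a line. Equal replicate numbers did not mark pairs of libraries in different groups, since the median correlation of residuals was 0.000536 for 100 pairs with the same number and -0.000485 for 200 with different numbers. Alternatives were RLE scaling, leaving out the filter, a filter of 10 counts in 4 libraries, DESeq2 1.42.0, limma voom (limma 3.58.1), replicate number as a block, models of only the 2 groups compared, an adjusted p below 0.001, and each library left out in turn. The procedure was tested on simulated data. No columns were left out.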

Additional observations from a re-analysis of the deposited data

Results flagged for a closer look

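The insulin effect on *Insig1* differed between lines in 2 tested contrasts of the model. It was smaller in K1030R than in IR cells, with a log2 difference of -0.32 (quasi-likelihood test of edgeR, Benjamini-Hochberg adjusted p = 0.000191), and larger in ∆CT than in K1030R cells by 0.23 (adjusted p = 0.0337). The second contrast rests on 2 ∆CT dishes with insulin, and it lost its call in 8 of 33 alternatives, with an adjusted p between 0.00184 and 0.388. No group held more than 3 dishes, so single outlying dishes were not tested for.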

How the results depend on the processing

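None of the 229 called single-member differences changed sign under any alternative. Apart from the 0.001 threshold, 22 of them lost their call in at least 1 alternative, and 9 uncalled ones gained one. The replicate block changed 2 counts: members higher in K1030R than in DKO went from 21 to 22, and members called for insulin in IR cells from 1 to 2. The number of members past 1.5-fold in K1030R against DKO, 3, was 5 without a filter on low counts and in the 2-group model, 1 at 0.001, and 3 to 5 with a library left out, 5 being without K1030R basal dish 1. In ∆CT against DKO the 2 past 1.5-fold became 1 with DESeq2, limma voom, and 0.001, and were 1 to 2 with a library left out. In IR against DKO the 1, *Abca1*, became up to 2 (without DKO dish 1). *Abca1* is also among the 3 in K1030R and the 2 in ∆CT cells. The filter kept it only through DKO and JMO libraries, so these counts do not support a direction for it. The 1 member called between ∆CT and K1030R became 4 without a filter, 0 with DESeq2, the 2-group model, and 0.001, and 0 to 2 with a library left out. Insulin in IR cells called 4 members without a filter, and 1 to 7 with a library left out (7 without IR basal dish 3), and in ∆CT cells 1 to 2 (2 without ∆CT basal dish 2). At 0.001, the 1 member higher in JMO than in DKO became 0, the 4 lower in IR than in JMO became 2 basally and 2 with insulin, and the 4 lower in K1030R than in JMO with insulin became 1. With a library left out these ranged from 2 to 4 for IR basally (2 without JMO basal dish 1) and 2 to 4 for K1030R with insulin (2 without K1030R insulin dish 3). The counts of members lower than in JMO also include *Abca1*, with the same limit. The cause of these changes was not tested.

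The results that changed sign were all uncalled. With RLE scaling and DESeq2, IR against DKO became -0.004435 and -0.004566 for *Ebp* and -0.006677 and -0.006626 for *Npc1*, and ∆CT against IR became 0.006612 and 0.006864 for *Srebf1*. In 2-group models ∆CT against IR became 0.01483 for *Srebf1* and 0.0005058 for *Tm7sf2*. Without a filter, IR against JMO became 0.008347 for *Insig2* and ∆CT against JMO 0.007414 for *Mylip*. With a library left out, IR against DKO ranged from -0.01211 to 0.02989 for *Npc1*, -0.02627 to 0.04446 for *Ebp*, and -0.005246 to 0.09839 for *Idi1*. JMO against DKO ranged from -0.03243 to 0.07339 for *Ggps1*, -0.03815 to 0.01742 for *Srebf1*, -0.035 to 0.01232 for *Scap*, and -0.1563 to 0.01993 for *Mvd*. ∆CT against DKO ranged from -0.03971 to 0.02513 for *Ebp*. ∆CT against IR ranged from -0.0533 to 0.01757 for *Ebp*, -0.06518 to 0.05063 for *Srebf1*, -0.06815 to 0.002227 for *Srebf2*, -0.0518 to 0.03961 for *Tm7sf2*, and -0.496 to 0.1157 for *Abca1*. K1030R against IR ranged from -0.0622 to 0.007808 for *Srebf2*, IR against JMO from -0.005217 to 0.01707 for *Lbr* and -0.02407 to 0.01296 for *Insig2*, and ∆CT against JMO from -0.06396 to 0.06146 for *Mylip* and -0.009126 to 0.06046 for *Npc1*.

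At these totals 0.5 CPM is about 10 counts, so *Abca1* and *Abcg1* in IR, K1030R, and ∆CT cells rest on few counts.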
